A study of Mus musculus with 6 samples.

Results

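The 10 genes described here encode enzymes of glycolysis, the cytosolic route that turns glucose into pyruvate and lactate. They were taken by gene symbol from the deposited expression table: *Hk1*, *Hk2*, *Gpi1*, *Pfkl*, *Pfkp*, *Aldoa*, *Gapdh*, *Pgk1*, *Pkm* and *Ldha*. The symbols matched 11 of 54532 rows, since *Aldoa* has 2, and all 11 rows passed the filter on low values. The RNA came from LSK cells, which are bone marrow cells sorted for Sca1 and c-Kit and against lineage markers, and which include hematopoietic stem and progenitor cells (HSPCs). Control libraries (CTRL, n = 3) were from *Myh9*fl/fl;no cre mice and *Myh9*-deficient libraries (cKO, n = 3) from *Myh9*fl/fl;Mx1-cre littermates, all C57BL/6 and, by the study's methods, induced at 5 to 6 weeks of age. Mice of both genotypes received poly I:C at 5 mg/kg, in 2 doses by the sample labels and 3 by the study's methods, and 100000 LSK cells per library were sorted 4 days after the first injection. *Mx1*-cre is switched on by interferon and is not limited to blood cells, so other tissues of the cKO mice may also have lost the gene. The labels do not say how many mice each library came from, so p-values measure the spread between these libraries.

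Glycolysis starts when hexokinases phosphorylate glucose. Phosphofructokinase then commits the sugar to breakdown, aldolase splits it, and GAPDH, phosphoglycerate kinase and pyruvate kinase yield NADH and ATP. Lactate dehydrogenase reduces pyruvate to lactate and so returns NAD+ to the GAPDH step. Stem cells of the bone marrow are known to rely on glycolysis in their low-oxygen niche and to shift toward mitochondrial respiration as they divide and differentiate.

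Each library held 17571544 to 19894562 reads on genes. Log2 values correlated at 0.991 to 0.993 between libraries of the same group and at 0.974 to 0.977 between groups. *Myh9* itself, the targeted gene (non-muscle myosin IIA heavy chain), was at 23.0, 22.6 and 22.0 FPKM in the CTRL libraries and 18.4, 20.0 and 17.7 in the cKO libraries. It was lower in cKO without overlap (log2 fold change -0.26 ± 0.049 SE, adjusted p = 0.00642 in limma), but its value is counted over all exons and does not resolve the floxed part. Its call was lost after removal of each library's GC and length trends (-0.12, adjusted p = 0.0513). Of the markers of the sorted fraction, *Kit* was at 23.9 ± 0.454 FPKM in CTRL and 21.5 ± 0.334 in cKO, and *Ly6a*, which encodes Sca1, at 95.4 ± 1.87 and 89.5 ± 3.63 (SD, n = 3 each). The libraries also differed in lineage genes. The 12 neutrophil and monocyte markers summed to 9028 to 9092 FPKM in CTRL and 4670 to 4740 in cKO, with 9 of 10 tested markers lower. The 12 erythroid markers summed to 82.0 to 86.2 and 158 to 170 FPKM, with 8 of 8 higher, and the 8 megakaryocyte markers to 57.6 to 61.2 and 126 to 131, with 3 of 3 higher and 1 marker listed at 0 in every library. Among all genes tested, 19.9% were higher and 20.6% lower at an adjusted p under 0.05. The part of these marker shifts in the results below was not tested, and in such bulk libraries fewer cells of a type and less RNA per cell cannot be told apart.

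Expression of the glycolytic enzymes did not move one way. *Ldha* and *Pgk1* rose in cKO LSKs, *Hk2*, *Pfkp* and *Pkm* fell, and the other rows did not pass an adjusted p under 0.05. Among all 11552 genes tested, 19.9% were called higher and 20.6% lower, against 2 and 3 of the 11 rows, so the shares called were near the background. The groups did not overlap in 7 of the 11 rows, against 54.0% of all genes tested. None of the 11 rows passed the study's thresholds (more than 2-fold with an unadjusted p under 0.05), which 2.13% of all genes tested passed. The median log2 fold change was -0.060 over the 11 rows and -0.0096 over all genes tested. Over the 11 rows it was -0.10 after quantile normalization and -0.0065 after removal of GC and length trends. A fold change here is the difference, cKO minus CTRL, of mean log2(FPKM + 1), where FPKM is the number of reads scaled by gene length and library size. It understates changes of genes near 1 FPKM, and an exact permutation test of 3 against 3 libraries could not go below p = 0.1.

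**Figure D1:**
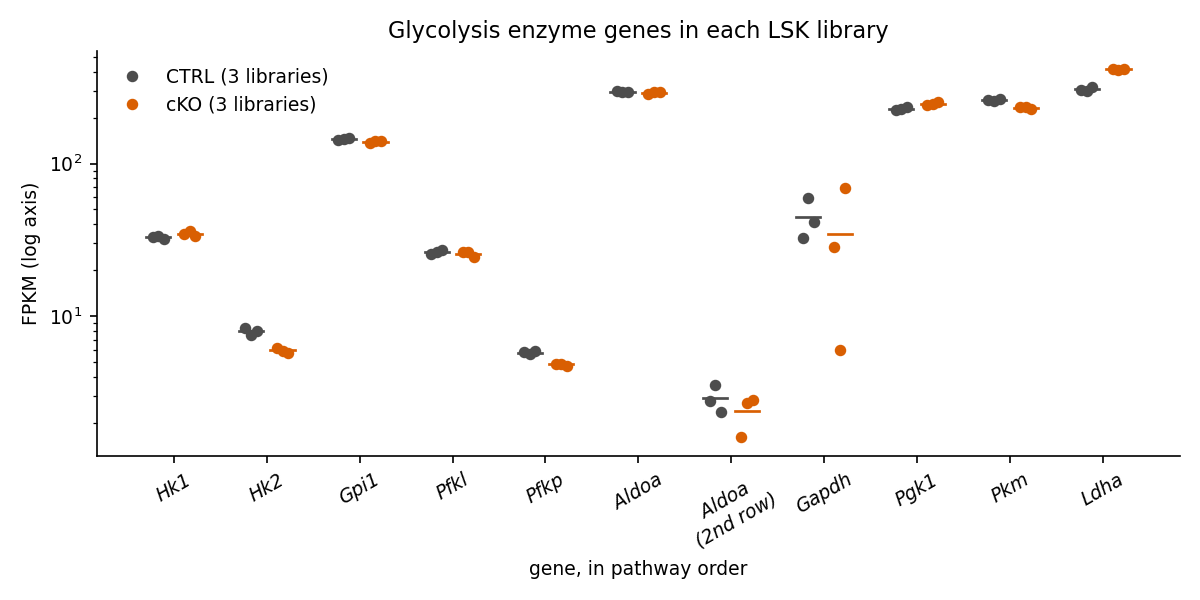
FPKM (log axis) of the 10 enzyme genes in pathway order, with each point 1 library and each bar the mean of 3. *Ldha* stands higher in all 3 cKO libraries, *Hk2*, *Pfkp* and *Pkm* stand lower, and *Gapdh* is scattered from 5.98 to 69.5 FPKM.

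The genes spanned a wide range of levels per length in CTRL LSKs. *Ldha* was highest at 307 ± 8.76 FPKM, followed by *Aldoa* (296 ± 3.40), *Pkm* (261 ± 2.55), *Pgk1* (228 ± 5.74) and *Gpi1* (145 ± 1.31). The values of these 5 genes stood apart from each other in every CTRL library. *Gapdh* (44.4 ± 13.9) overlapped with *Hk1* (32.8 ± 0.574), and below them *Pfkl* (26.3 ± 0.839), *Hk2* (7.94 ± 0.459) and *Pfkp* (5.75 ± 0.133) again did not overlap (SD, n = 3 each). The mean FPKM of *Ldha* was 53.3 times that of *Pfkp*. Comparisons between genes depend on the gene lengths used. For *Pfkp* this was 13401 bases, against 4145 in its longest protein-coding transcript. By the means of the cKO LSKs *Pgk1* stood above *Pkm* and *Hk1* above *Gapdh*, and the other genes kept their place in the order. The place of *Gapdh* is uncertain, since 78.0% of the 100-base windows of its transcript also occurred in transcripts of other genes. For *Pgk1* this was 67.0%. How such shared reads were counted is not given in the sources used here.

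At the entry of glucose into the pathway *Hk2* was lower, while *Hk1* did not pass the test. Gene positions are those of the deposited table (mm10, whole gene). *Hk2* (ENSMUSG00000000628, chr6:82725025-82774454, minus strand), an inducible hexokinase that binds mitochondria, was at 8.37, 7.45 and 7.99 FPKM in CTRL and 6.19, 5.91 and 5.73 in cKO. Each cKO library lay below each CTRL library, and the mean FPKM decreased by 25.1% (log2 fold change -0.36 ± 0.053 SE, 95% CI -0.49 to -0.24, adjusted p = 0.0024). *Hk1* (ENSMUSG00000037012, chr10:62268855-62379908, minus strand), the broadly expressed hexokinase, was at 32.8, 33.4 and 32.2 FPKM in CTRL and 34.3, 36.4 and 33.4 in cKO. The cKO values were all above the CTRL values by a narrow margin, but the difference did not pass the test (0.078 ± 0.038, adjusted p = 0.147). It passed with voom on the recovered reads (0.10, adjusted p = 0.0188) and after removal of GC and length trends (0.20, adjusted p = 0.00295). Reads of the antisense gene *Hk1os*, 22 to 63 per library against 5019 to 5659 on *Hk1*, cannot be separated from *Hk1* where the genes overlap, because no strand setting is stated.

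*Hk3*, a hexokinase found mainly in myeloid cells, is not one of the 10 genes but had the highest FPKM of the hexokinases in CTRL LSKs. It was at 82.5, 79.9 and 80.4 FPKM in CTRL and 44.5, 44.8 and 43.7 in cKO, the largest log2 difference, by size, among the called genes of the 10 and the further isozymes and steps (-0.85 ± 0.026, adjusted p = 4.79e-06). *Hk3* made up 66.2 to 66.7% of the hexokinase FPKM in CTRL and 51.4 to 52.7% in cKO, and *Hk1* 26.5 to 27.7% and 40.3 to 41.8%. The share of *Hk2* was 6.18 to 6.77% in CTRL and 6.79 to 7.28% in cKO, so *Hk2* fell in level but not in its share. These shares and the rank of *Hk3* depend on the gene lengths used. For *Hk1* this was 8532 bases, against 4278 in its longest protein-coding transcript. The sum over *Hk1*, *Hk2* and *Hk3* decreased from 122 ± 1.74 to 85.0 ± 2.12 FPKM (SD, n = 3), or by 30.1%. Beside it, the summed neutrophil and monocyte markers decreased as given above, and their part in the change of *Hk3* was not tested.

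The next steps changed little in total and in part by isozyme. *Gpi1* (ENSMUSG00000036427, chr7:34201330-34230336, minus strand), which isomerizes glucose-6-phosphate, was at 144, 146 and 146 FPKM in CTRL and 136, 140 and 141 in cKO. All cKO values were lower, by 4.11% in the mean, and the difference did not pass the test (-0.060 ± 0.024, adjusted p = 0.0891), though it did after rescaling to TPM (adjusted p = 0.0453) and after quantile normalization (adjusted p = 0.0242). Its sign turned after removal of each library's GC and length trends (0.031). *Pfkl* (ENSMUSG00000020277, chr10:77986947-78010083, minus strand), the liver-type phosphofructokinase and the isozyme with the highest FPKM here, was at 25.4, 26.4 and 27.1 FPKM in CTRL and 26.4, 26.3 and 24.3 in cKO. These values overlapped (-0.037 ± 0.044, 95% CI -0.14 to 0.067, adjusted p = 0.538), and the sign turned after removal of GC and length trends (0.069) and without cKO library 3 (0.00081).

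*Pfkp* (ENSMUSG00000021196, chr13:6579768-6648777, minus strand), the platelet-type phosphofructokinase, was at 5.79, 5.60 and 5.85 FPKM in CTRL and 4.84, 4.88 and 4.72 in cKO. It fell without overlap (-0.21 ± 0.042, 95% CI -0.31 to -0.11, adjusted p = 0.00772), on 1322 to 1544 reads per CTRL and 1177 to 1216 per cKO library. Its 3′ end overlaps *Pitrm1* on the opposite strand over 748 bases. *Pitrm1* held 1796 to 2036 reads per library, and where the genes overlap their reads cannot be told apart without a strand setting. The call was lost once GC and length trends were removed (-0.11, adjusted p = 0.0854). *Pfkm*, the muscle-type isozyme, moved the other way, from 14.9, 14.8 and 15.4 FPKM in CTRL to 18.4, 20.3 and 18.2 in cKO (0.31 ± 0.048, adjusted p = 0.00281).

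Together, the phosphofructokinase isozymes summed to 47.1 ± 1.15 FPKM in CTRL and 49.4 ± 2.11 in cKO, with overlapping values, while their shares did not overlap. *Pfkm* held 31.6 to 32.3% in CTRL and 37.0 to 39.4% in cKO, *Pfkl* 55.1 to 56.5% and 51.1 to 53.2%, and *Pfkp* 11.96 to 12.6% and 9.49 to 9.997%. These shares also depend on the gene lengths used, so the order of the isozymes is given by FPKM only.

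**Figure D2:**
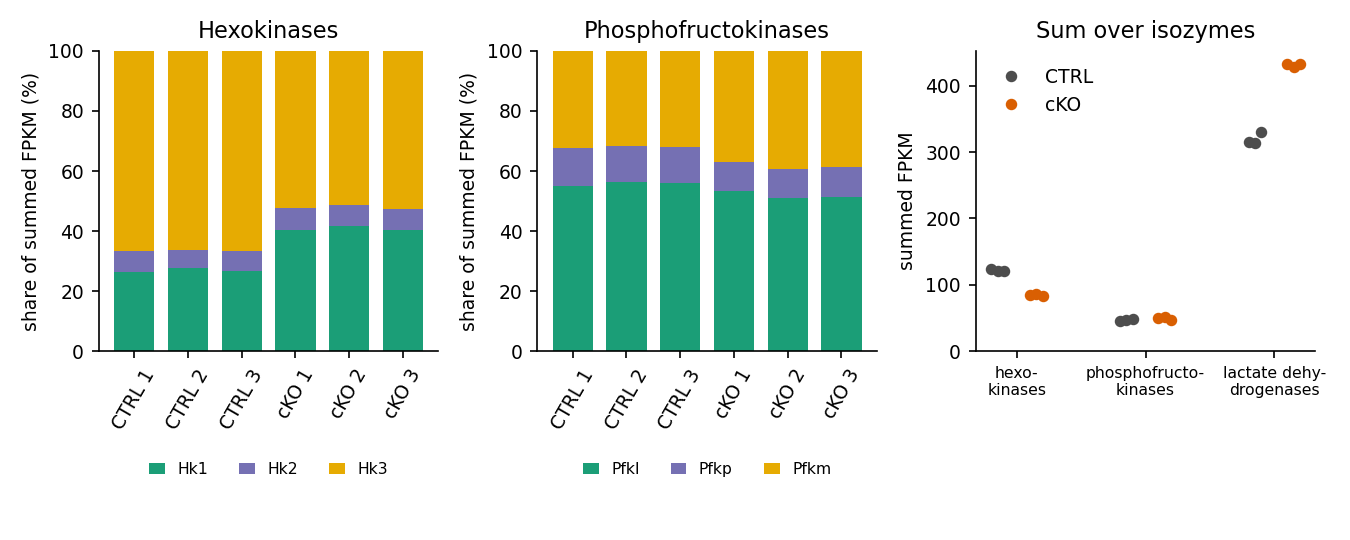
Share of each isozyme in the summed FPKM (%) of hexokinases and phosphofructokinases by library, and the summed FPKM of hexokinases, phosphofructokinases and lactate dehydrogenases, with each point 1 library. The *Hk3* share is 66.2 to 66.7% in CTRL and 51.4 to 52.7% in cKO, and the summed lactate dehydrogenases are higher in every cKO library.

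*Aldoa* (ENSMUSG00000030695, chr7:126795234-126800751, minus strand), the aldolase that splits fructose-1,6-bisphosphate, did not pass the test. It was at 300, 293 and 296 FPKM in CTRL and 288, 294 and 295 in cKO, which overlapped (-0.020 ± 0.022, 95% CI -0.074 to 0.033, adjusted p = 0.503). After quantile normalization it passed as lower (-0.077, adjusted p = 0.0489). *Aldoa* held 99.5 to 99.7% of aldolase FPKM in the 6 libraries. The second row named *Aldoa* (ENSMUSG00000114515) lies just upstream on the same strand (chr7:126800790-126809108) and held 24 to 50 reads per library. It was at 2.89 ± 0.611 FPKM in CTRL and 2.37 ± 0.666 in cKO, with overlap (-0.22 ± 0.18, adjusted p = 0.368).

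*Gapdh* (ENSMUSG00000057666, chr6:125161715-125166467, minus strand), which oxidizes glyceraldehyde-3-phosphate and serves widely as a reference gene, was the least reproducible of the 10 genes. It was at 32.3, 59.6 and 41.4 FPKM in CTRL and 28.3, 5.98 and 69.5 in cKO. Both the lowest and the highest value were in cKO libraries, and the groups overlapped throughout (-0.86 ± 0.78, 95% CI -2.71 to 0.99, adjusted p = 0.418). Without cKO library 2 the difference was 0.043, and without cKO library 3 it was -1.62 and past 2-fold with an unadjusted p under 0.05, so a direction cannot be given. The SD of its log2 values within groups was 1.23, rank 4 of 7449 genes with at least 5 FPKM in 1 group, whose median was 0.0587. The other 9 genes, *Aldoa* by its main row, had SDs of 0.018 to 0.063.

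*Gapdh* has many near copies in the mouse genome. With at least 95% identity over at least 150 bases, 79 other genes of the table matched its longest protein-coding transcript in GENCODE M21, 76 of them annotated as pseudogenes, and 73 had reads. A stretch of its coding sequence is shown beside its 4 copies with the most reads, because reads from it can hardly be told apart. Positions count from 1 at the A of the start codon, bases 286 to 405 are shown, and a capital letter marks a base that differs from *Gapdh*.
Gapdh: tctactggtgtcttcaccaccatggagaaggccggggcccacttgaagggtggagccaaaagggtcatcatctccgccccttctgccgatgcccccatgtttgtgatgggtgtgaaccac
Gm7336: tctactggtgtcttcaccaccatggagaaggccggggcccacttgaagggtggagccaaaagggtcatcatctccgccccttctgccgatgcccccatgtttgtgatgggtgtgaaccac
Gm5559: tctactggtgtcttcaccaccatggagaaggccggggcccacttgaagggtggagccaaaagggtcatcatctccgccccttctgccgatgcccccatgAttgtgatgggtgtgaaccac
Gm12070: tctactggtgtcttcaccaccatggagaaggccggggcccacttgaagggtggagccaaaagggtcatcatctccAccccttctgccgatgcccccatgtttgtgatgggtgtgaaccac
Gm13394: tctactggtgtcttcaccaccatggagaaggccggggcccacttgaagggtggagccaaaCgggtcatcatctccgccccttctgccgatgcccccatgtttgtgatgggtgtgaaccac
*Gm7336* (chromosome 7) did not differ from *Gapdh* at any of the 1002 coding bases. *Gm5559* (chromosome 5) differed by T385A, *Gm12070* (chromosome 11) by G361A and *Gm13394* (chromosome 2) by A346C, which was the single difference of each within the coding bases compared.

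Of all 100-base windows of the *Gapdh* transcript, 78.0% also occurred in a transcript of another gene, against 67.0% for *Pgk1*, 16.0% for *Pfkp*, 9.82% for *Pkm* and 7.40% for *Gpi1*. The reads on *Gapdh* itself numbered 2654, 4341 and 3283 in CTRL and 2187, 451 and 5342 in cKO. Those on its 79 near copies summed to 1665, 1517 and 1635 in CTRL and 1746, 1992 and 1520 in cKO. *Gm7336* held 558, 479 and 605 reads in CTRL and 519, 835 and 487 in cKO. Library cKO 2 thus had the fewest reads on *Gapdh* and the most on its copies, though the copies varied far less. How reads with several matching places were counted is not given in the sources used here, and its part in the *Gapdh* values was not tested.

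**Figure D3:**
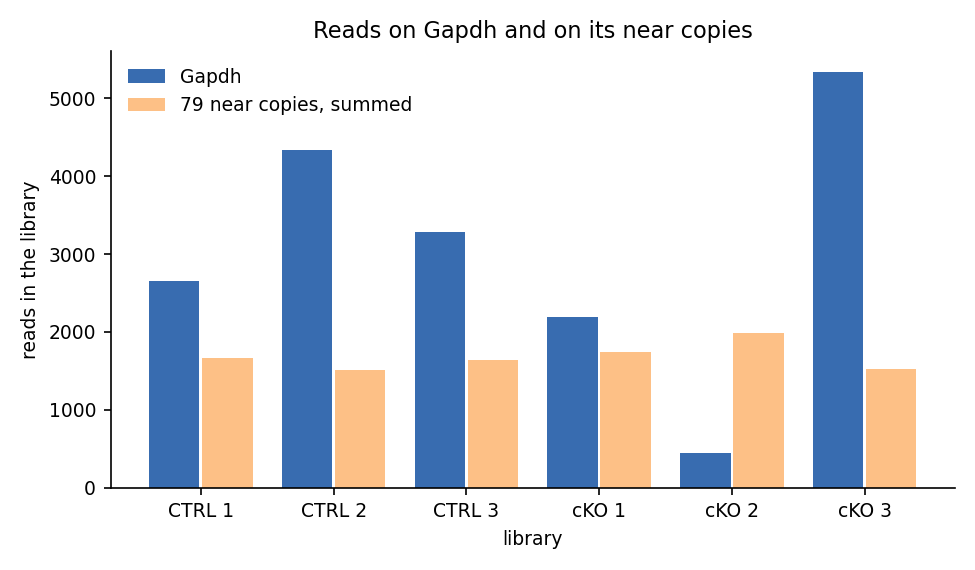
Reads on *Gapdh* and reads summed over its 79 near copies in each of the 6 libraries (bars from 0). *Gapdh* ranges from 451 to 5342 reads, and its copies range from 1517 to 1992.

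*Pgk1* (ENSMUSG00000062070, chrX:106187100-106203699, plus strand), phosphoglycerate kinase and the first ATP-forming step, was at 223, 227 and 235 FPKM in CTRL and 243, 246 and 253 in cKO. It rose by 8.20% in the mean, without overlap (0.11 ± 0.029, 95% CI 0.045 to 0.18, adjusted p = 0.0202). The call was lost without CTRL library 1 (adjusted p = 0.0724), CTRL library 2 (0.0647) or cKO library 3 (0.0622), and after removal of GC and length trends (0.065, adjusted p = 0.0984). The processed copy *Pgk1-rs7* matched it at 100% over 1255 bases but held 47 to 71 reads per library against 8976 to 10561 on *Pgk1*, and unlike *Gapdh* the gene varied little within groups.

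*Pkm* and *Ldha*, at the end of the pathway, moved in opposite directions. *Pkm* (ENSMUSG00000032294, chr9:59656368-59679375, plus strand), which gives the M1 and M2 pyruvate kinases by splicing, was at 260, 259 and 263 FPKM in CTRL and 235, 236 and 226 in cKO. It fell by 10.9%, without overlap (-0.17 ± 0.025, 95% CI -0.22 to -0.11, adjusted p = 0.00256). One gene-level value does not separate the M1 and M2 forms. *Pklr*, the pyruvate kinase of liver and red cells, rose from 10.3 ± 0.592 to 12.1 ± 0.851 FPKM (0.21 ± 0.062, adjusted p = 0.0354), a call that was lost without CTRL 1, CTRL 2, cKO 2 or cKO 3 (adjusted p up to 0.105).

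*Ldha* (ENSMUSG00000063229, chr7:46841475-46855627, plus strand), the lactate dehydrogenase subunit linked to lactate production, was at 303, 300 and 317 FPKM in CTRL and 416, 412 and 416 in cKO. It had the largest called difference of the 10 genes, with a rise of 35.2% in the mean and wide separation of the groups (0.43 ± 0.027, 95% CI 0.37 to 0.50, adjusted p = 6.57e-05). Over the libraries left out in turn it stayed between 0.42 and 0.46. *Ldhb*, the subunit that favors the reverse reaction in oxidative tissues, rose too, from 12.5, 12.6 and 13.8 to 16.1, 15.4 and 17.3 FPKM (0.30 ± 0.057, adjusted p = 0.00652). The share of *Ldha* in their sum was 95.8 to 96.0% in CTRL and 96.0 to 96.4% in cKO, and the sum increased from 320 ± 9.50 to 431 ± 3.19 FPKM.

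The stretches 250 bases upstream of the RefSeq starts (GRCm38.p6, strand of the gene) are shown for *Ldha* and *Pgk1*, which rose, and for *Hk2*, which fell, because they hold letters bound by known regulators of glycolysis. Capitals mark ACGTG on either strand, the core of the hypoxia response element bound by HIF1. It overlaps the E-box CACGTG bound by MYC and MAX.
Ldha, chr7:46845554-46845803, plus strand: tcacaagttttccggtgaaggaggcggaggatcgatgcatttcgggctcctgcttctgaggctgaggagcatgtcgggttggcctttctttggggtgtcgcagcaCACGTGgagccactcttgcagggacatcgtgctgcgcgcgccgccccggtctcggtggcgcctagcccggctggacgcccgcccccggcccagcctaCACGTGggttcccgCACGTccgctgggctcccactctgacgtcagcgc
Pgk1, chrX:106186850-106187099, plus strand: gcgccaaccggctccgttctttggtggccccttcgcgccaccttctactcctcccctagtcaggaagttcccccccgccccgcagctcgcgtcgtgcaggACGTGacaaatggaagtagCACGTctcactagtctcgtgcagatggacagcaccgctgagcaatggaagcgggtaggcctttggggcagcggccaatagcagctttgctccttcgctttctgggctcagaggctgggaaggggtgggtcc
Hk2, chr6:82774455-82774704, minus strand: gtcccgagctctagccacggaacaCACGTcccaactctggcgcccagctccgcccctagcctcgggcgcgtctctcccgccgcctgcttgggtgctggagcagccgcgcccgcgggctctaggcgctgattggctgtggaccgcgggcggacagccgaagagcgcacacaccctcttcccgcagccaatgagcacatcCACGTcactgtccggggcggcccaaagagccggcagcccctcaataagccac
*Ldha* held 3 such stretches, of which 2 were E-boxes, and *Pgk1* and *Hk2* held 2 each with no E-box. The corresponding stretch of the nearest RefSeq start of *Pfkp*, of *Pkm* and of the 5 genes that did not pass the test held no match. At these starts 3 of the 10 genes had the core, 2 that rose and 1 that fell. Counting every listed start, it was also found once at the second of 2 starts of *Pkm*, which fell, and once at 2 of the 3 starts of *Aldoa*, which did not pass the test and whose stretches there overlap. This makes 5 of 10 genes. The second listed start of *Ldha* held no match. Counted per single promoter, the core occurred in 16.6% and the E-box in 6.02% of 32851 mouse promoters of the same length. The count of 5 genes allows several starts per gene, so it cannot be set beside these shares. A match is a description of letters, and binding was not measured.

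Among the other enzymes of the pathway, calls were also found in both directions. Of 20 further isozymes and steps, 12 were tested, of which 5 were higher and 5 lower, 41.7% in each direction against 19.9% and 20.6% of all genes tested, with a median of 0.050. *Pfkm*, *Ldhb*, *Pklr*, *Tpi1* and *Bpgm* were higher, and *Hk3*, *Pgam1*, *Pgam2*, *Aldoc* and *Adpgk* were lower. *Tpi1* (triose-phosphate isomerase) rose from 208 ± 2.53 to 225 ± 1.82 FPKM (0.11, adjusted p = 0.00751), a call lost after quantile normalization (0.048, adjusted p = 0.149). *Pgam1* (phosphoglycerate mutase) fell from 267 ± 4.27 to 218 ± 3.79 (-0.29, adjusted p = 0.000266). Between them in the pathway, *Bpgm*, which makes the 2,3-bisphosphoglycerate of red cells, rose from 6.22 ± 0.0237 to 7.07 ± 0.262 FPKM (0.16, adjusted p = 0.0225). *Eno1* (enolase) was at 147 ± 2.54 and 146 ± 2.92 FPKM and did not pass the test (-0.013, adjusted p = 0.73). The lower count was 3 or 4 with any 1 library left out, and 3 of 18 tested with no filter on low values. The higher count was 3 or 4 with any 1 library left out. *Pgam2* and *Aldoc*, both under 2 FPKM in every library, had the lowest levels among the lower calls, and *Aldoc* was lost without any CTRL library, cKO 1 or cKO 2 (adjusted p up to 0.0902). The call of *Adpgk*, an ADP-dependent glucokinase, was lost without any 1 of the 6 libraries (adjusted p up to 0.113), and that of *Bpgm* without any of them but cKO 2 (adjusted p up to 0.0668).

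**Figure D4:**
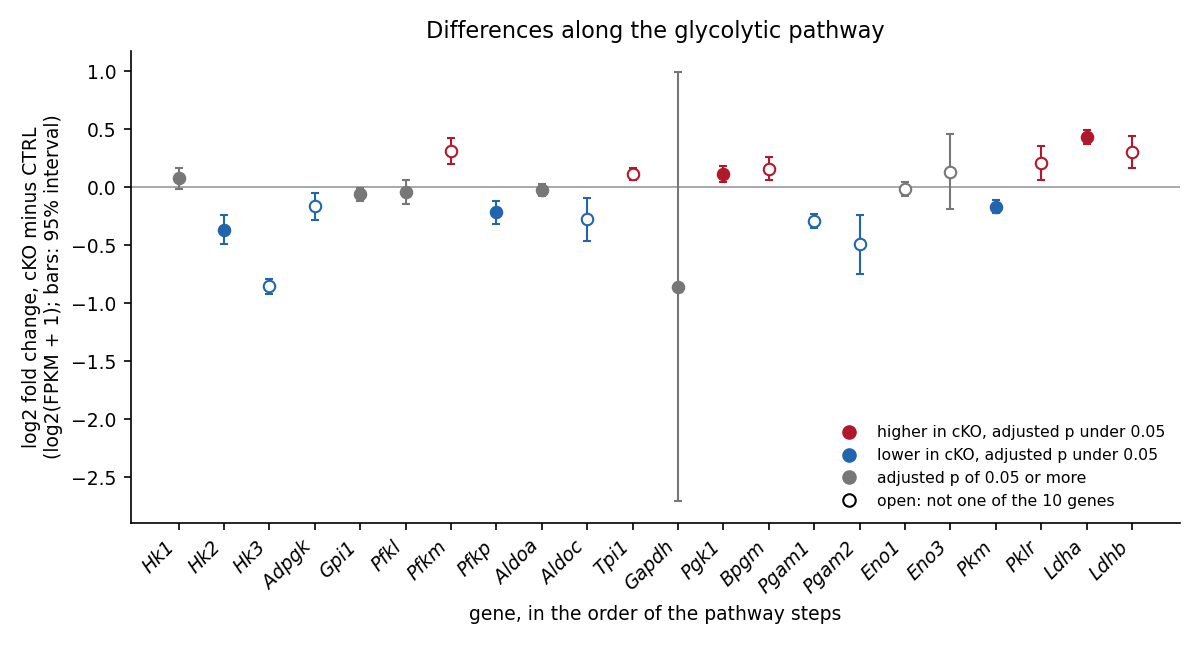
Log2 fold change, cKO minus CTRL, of the tested glycolysis genes in the order of the steps, with 95% intervals. Filled points are the 10 genes and open points the other isozymes and steps, and the interval of *Gapdh* runs from -2.71 to 0.99.

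Of 6 tested carriers of glucose and lactate, 1 was higher and 1 lower, and of 2 chaperones of lactate carriers 1 was higher and 1 lower. Thus 25.0% of the 8 genes were called in each direction, near the 19.9% higher and 20.6% lower of all genes tested. *Slc2a3* (GLUT3) rose from 4.56 ± 0.114 to 6.39 ± 0.398 FPKM (0.41, adjusted p = 0.00156), whereas *Slc2a1* (GLUT1) was at 7.37 ± 0.114 and 7.03 ± 0.560 (-0.063, adjusted p = 0.421). The lactate carriers *Slc16a1* (0.074, adjusted p = 0.272) and *Slc16a3* (0.15, adjusted p = 0.203) did not pass the test, though *Slc16a1* passed without cKO 1 (0.12, adjusted p = 0.0488). Of the chaperones, which bring lactate carriers to the membrane, *Bsg* rose (0.11, adjusted p = 0.0221) and *Emb* fell, from 68.1 ± 1.43 to 46.0 ± 1.14 FPKM (-0.55, adjusted p = 4.41e-05). The call of *Bsg* was lost without CTRL 1, CTRL 2, cKO 1 or cKO 3 (adjusted p up to 0.0754). The lower carrier, *Slc2a6* of the hexose carriers, was at 3.93 ± 0.331 and 2.77 ± 0.170 FPKM (-0.39, adjusted p = 0.0057).

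All 6 tested regulators of the pathway were called, 3 in each direction, or 50% each against 19.9% higher and 20.6% lower of all genes tested. *Fbp1*, the gluconeogenic enzyme that reverses the phosphofructokinase step, rose from 4.57 ± 0.372 to 10.2 ± 0.277 FPKM (1.01 ± 0.058, adjusted p = 5e-05). *Txnip*, which restrains glucose uptake, rose from 59.1 ± 0.211 to 79.2 ± 2.15 (0.42, adjusted p = 9.38e-05), and its relative *Arrdc4* rose (0.26, adjusted p = 0.0213). *Pfkfb3* (-0.30, adjusted p = 0.00328) and *Pfkfb4* (-0.20, adjusted p = 0.0366), which set the level of the phosphofructokinase activator fructose-2,6-bisphosphate, fell, as did *Tigar*, which breaks it down (-0.33, adjusted p = 0.00291). *Arrdc4* was lost without CTRL 1, CTRL 3, cKO 1 or cKO 2 (adjusted p up to 0.0666), and *Pfkfb4* without any 1 of the 6 libraries (adjusted p up to 0.0985).

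In the pentose phosphate pathway, which draws on glucose-6-phosphate for NADPH and ribose, 4 of 8 tested genes fell and none rose, 50.0% lower against 20.6% of all genes tested, with a median of -0.20. These were *H6pd* (-0.39, adjusted p = 0.00115), *G6pdx* (-0.30, adjusted p = 0.000966), *Pgd* (-0.29, adjusted p = 0.000806) and *Tkt* (-0.26, adjusted p = 0.000632). Among 12 tested genes of other side branches, 3 were higher (25.0%) and 5 lower (41.7%), against 19.9% and 20.6% of all genes tested. The 3 enzymes of serine synthesis from 3-phosphoglycerate rose: *Psph* (0.36, adjusted p = 0.00483), *Psat1* (0.20, adjusted p = 0.00372) and *Phgdh* (0.16, adjusted p = 0.00375). Of the tested genes of glycogen metabolism, *Gys1* (-0.35, adjusted p = 0.00173), *Pygl* (-0.23, adjusted p = 0.00202), *Pygb* (-0.22, adjusted p = 0.00299) and *Ugp2* (-0.17, adjusted p = 0.0373) fell, while *Pygm* (0.13, adjusted p = 0.277) and *Gbe1* (0.033, adjusted p = 0.803) did not pass the test. Also lower was *Gpd1l* (-0.21, adjusted p = 0.00631), related to glycerol-3-phosphate dehydrogenase. The call of *Ugp2* was lost without CTRL 2, CTRL 3, cKO 2 or cKO 3 (adjusted p up to 0.109).

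Of 13 tested genes for pyruvate entry into mitochondria, 2 were higher and 2 lower, 15.4% in each direction against 19.9% and 20.6% of all genes tested. *Pdk3*, a kinase that turns off pyruvate dehydrogenase, rose (0.20, adjusted p = 0.00445), and *Dld*, a subunit of that complex, rose (0.13, adjusted p = 0.0485). *Pdk2* (-0.29, adjusted p = 0.0334) and the phosphatase *Pdp2* (-0.23, adjusted p = 0.0281) fell. Calls of *Dld*, *Pdk2* and *Pdp2* were lost with several single libraries left out, with adjusted p up to 0.143. In the TCA cycle 6 of 16 genes rose (37.5%) and 2 fell (12.5%). The largest rises were *Idh3a* (0.29, adjusted p = 0.00187), *Mdh2* (0.28, adjusted p = 0.000183) and *Suclg1* (0.24, adjusted p = 0.00125), and *Ogdh* (-0.20, adjusted p = 0.00577) and *Sdha* (-0.12, adjusted p = 0.0346) fell. *Sdha* lost its call without CTRL 2, CTRL 3, cKO 1 or cKO 3 (adjusted p up to 0.102).

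Of 9 tested transcription factors with known targets in glycolysis, 4 fell and none rose, 44.4% lower against 20.6% of all genes tested, and 1 of these 4 calls, that of *Sp1*, held whichever library was left out. *Sp1* went from 8.17 ± 0.407 to 6.56 ± 0.243 FPKM (-0.28, adjusted p = 0.00543), and *Arnt*, the partner of HIF1, from 4.49 ± 0.179 to 3.75 ± 0.127 (-0.21, adjusted p = 0.0177). *Hif1a* went from 7.5, 6.9 and 7.1 to 6.1, 6.1 and 6.7 FPKM (-0.17, adjusted p = 0.0415), and *Foxk1* fell (-0.18, adjusted p = 0.0427). The call of *Hif1a* was lost without any library but cKO 3 (adjusted p up to 0.126), and that of *Foxk1* without any 1 library (adjusted p up to 0.129). That of *Arnt* was lost without CTRL 2, CTRL 3 or cKO 2 (adjusted p up to 0.06004). *Myc* was at 110 ± 1.32 and 111 ± 2.54 FPKM (0.0039, adjusted p = 0.92). HIF1 is regulated mainly at the protein level, which was not measured.

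The enzyme genes with the hypoxia response core upstream of a start did not move one way. At the nearest starts these were *Ldha* (0.43) and *Pgk1* (0.11), which rose, and *Hk2* (-0.36), which fell. Counting every listed start added *Pkm* (-0.17), which fell, and *Aldoa* (-0.020), which did not pass the test. Of 13 tested genes of the response to hypoxia outside the pathway, 8 were lower (61.5%) and 2 higher (15.4%), with a median of -0.19. Of all genes tested, 20.6% were lower and 19.9% higher. The lower genes included *P4ha1* (-0.67, adjusted p = 8.9e-05), *Vegfa* (-0.42, adjusted p = 0.00283) and *Mxi1* (-0.41, adjusted p = 0.00101). *Ddit4*, a stress-induced inhibitor of mTORC1, rose from 16.9 ± 1.28 to 33.7 ± 2.18 FPKM (0.95, adjusted p = 0.000113), and *Higd1a* rose (0.38, adjusted p = 0.0106).

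**Figure D5:**
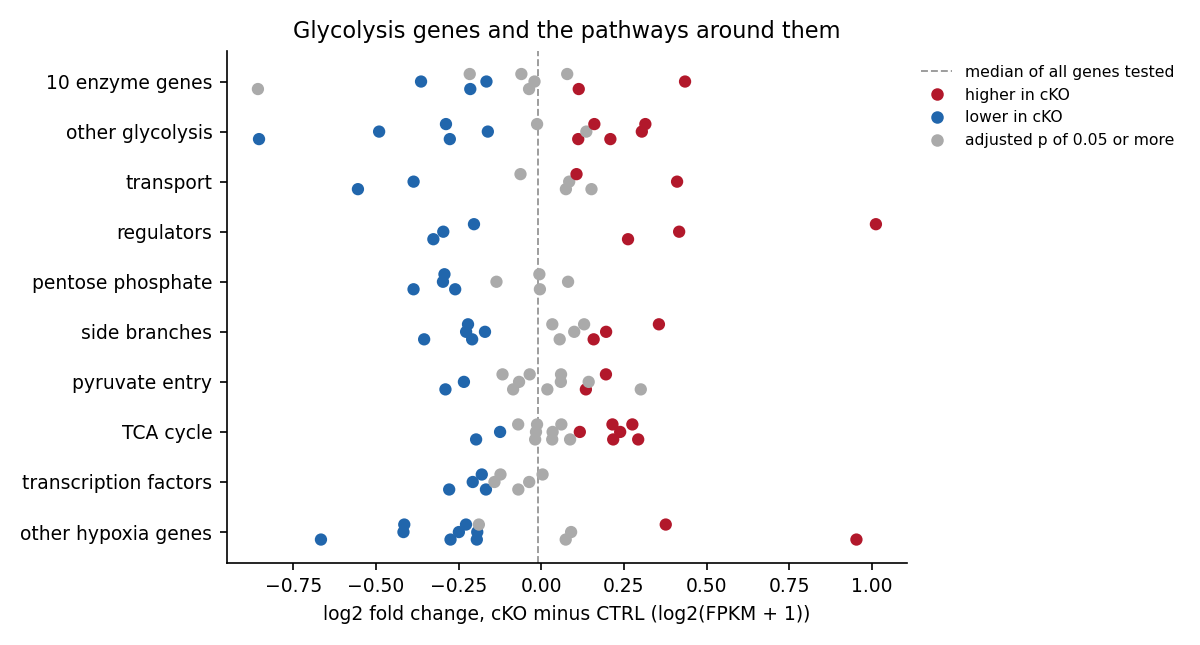
Log2 fold change, cKO minus CTRL, of each tested gene (1 point) of the 10 enzyme genes and of the lists around them. The broken line is the median of all genes tested, and the pentose phosphate and transcription factor lists hold no gene called higher.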

How the data were processed

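RNA-seq libraries of sorted LSK cells were compared between 3 control and 3 *Myh9*-deficient samples, grouped by their sample titles. The authors deposited FPKM values for 54532 genes, with gene lengths, 1 column for each library. The submitters' processing notes list HISAT2 2.0.5 and mm10, while the counting program, the annotation release and the rule for reads with several matches are not given in the sources used here. Multiplied by gene length, 100% of the values were whole numbers of reads (within 0.1 read) after division by 1 constant for each library, which gave the reads behind them. The deposited FPKM were already scaled by median-of-ratios factors, since these factors equalled 1 in every library.

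The 11552 genes averaging at least 1 FPKM across the 6 libraries were fitted on log2(FPKM + 1) with limma 3.58.1 (lmFit, eBayes with a trend, two-sided) in R 4.3.3. Adjusted p-values are from this fit, with Benjamini-Hochberg adjustment over all genes tested, and a call is an adjusted p under 0.05. ± after a log2 fold change is its SE. The model was tested on simulated data. Without molecular identifiers, read numbers speak to counting error only.

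The 10 genes and the lists of surrounding genes were chosen with earlier results of these data known. All 10 genes were named, and of each list at most 3 genes in each direction with the largest called differences, with *Hk3*, *Pfkm*, *Aldoc*, *Tpi1*, *Pgam1*, *Eno1*, *Ldhb*, the main glucose and lactate carriers, *Hif1a*, *Myc* and *Myh9*. *Kit*, *Ly6a*, *Bpgm*, *Adpgk*, *Tkt*, *Gpd1l*, *Ugp2*, *Pygm* and *Gbe1* were named after their values were seen. Lymphoid markers (12) summed to 424 to 430 FPKM in CTRL and 402 to 404 in cKO, with 4 higher and 1 lower of 7 tested.

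Near copies were found with blastn 2.17.0 among GENCODE M21 transcripts, and promoters, for 10 of 10 genes, are from RefSeq (GRCm38.p6). Alternatives were a pseudocount of 0.1, no filter, a mean of at least 5 FPKM, median-of-ratios, TPM and quantile scaling, limma without a trend, voom on the recovered reads, a replicate block and leaving out each library. Removal of trends with GC content and gene length was added after the data were seen. Python 3.11.15, pandas 2.3.3 and matplotlib were used for tables and figures.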

Additional observations from a re-analysis of the deposited data

How the results depend on the processing

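Under each of 16 alternatives, *Hk2* and *Pkm* stayed lower and *Ldha* higher at an adjusted p under 0.05. Scaling by the median of ratios changed no value, because the deposited FPKM already carry it. The 11 rows kept their direction and side of the threshold in 99 of 109 comparisons with all libraries and in 61 of 66 with 1 library left out. The other named genes did so in 536 of 586 and 287 of 360, and most of the rest kept their direction but lost the call. These tallies include the median-of-ratios scaling, which could change nothing. They also include changes of the filter, the trend and the block, which could change calls but no direction. *Gpi1* passed after rescaling to TPM (-0.082) and quantile normalization (-0.10), which also took *Aldoa* past the threshold (-0.077), so that 5 rows were lower and the median of the rows was -0.10. *Pgk1* was lost without a trend (0.11), which left 1 row higher. *Hk1* passed with voom (0.10). With GC and length trends removed, an alternative added after the data were seen, *Hk1* passed (0.20), *Pfkp* (-0.11) and *Pgk1* (0.065) were lost, *Gpi1* (0.031) and *Pfkl* (0.069) changed sign, and the median of the rows was -0.0065. The cause of these changes was not tested. Leaving out 1 library gave *Pgk1* 0.096 to 0.13, *Pfkl* -0.061 to 0.00081, *Gapdh* -1.62 to 0.043, 1 to 2 rows higher, 3 rows lower and 0 to 1 past 2-fold.

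Of the further glycolysis genes, 12 were tested in the main fit. With a replicate block 3 of these 12 were lower, and with no filter 3 of 18 were lower. With a mean of at least 5 FPKM 3 of 10 were lower, where *Pgam2* and *Aldoc* were left out. With 1 library left out, 3 to 4 were higher and 3 to 4 lower. Samples with the same replicate number did not deviate together (correlations of deviations of -0.0046, -0.011 and -0.026), no sample correlated best with its own number, and the replicate block left 2 of the 11 rows higher and 3 lower. *Gbe1* ranged from -0.072 to 0.089 with 1 library left out. *Eno1* changed sign with voom (0.0067) and with GC and length trends removed (0.077). *Myc* changed sign under TPM (-0.017) and quantile normalization (-0.028) and ranged from -0.015 to 0.014 with 1 library left out. The number of libraries, 3 a group, limits the precision, and the spread of *Gapdh* allowed no direction to be given.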

Other observations

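Few other genes varied within groups as *Gapdh* did. Of 7449 genes with at least 5 FPKM in 1 group, 3 had a larger SD of log2 values within groups, the immunoglobulin segment *Ighd4-1* (2.23), the mitochondrial tRNA gene *mt-Te* (1.39) and the T cell receptor segment *Trbd1* (1.27). The next after *Gapdh* (1.23) were the ribosomal protein pseudogene *Rpl30-ps10* (1.20) and *Sumo2* (1.19), which encodes a small ubiquitin-like modifier. These genes were named after their values were seen, and the cause of their spread was not tested.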
